A study of Mus musculus with 12 samples.

Results

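The nuclear genes of the respiratory chain and of ATP synthase were picked by the gene name that the array files give each probe. Names beginning Nduf with a letter a, b, c, s or v and a digit, Sdha to Sdhd, names beginning Uqcr, Cyc1, names beginning Cox4 to Cox8, and names beginning Atp5 were taken. This gave 125 of 39429 probes and 86 of 30139 genes or transcripts. Complex I had 35 of them, complex II 4, complex III 9, complex IV 20 and complex V 15. The remaining 3 carry such a name without being established subunits of these enzymes: Atp5s and Atp5sl, now called Dmac2l and Dmac2, and the pseudogene Atp5c1-ps. The count of complex IV also takes in Cox7a2l and Ndufa4l2, which are relatives of its subunits.

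The respiratory chain sits in the inner mitochondrial membrane. Complexes I and II pass electrons from NADH and succinate to ubiquinone, complex III hands them to cytochrome c and complex IV to oxygen, while protons are pumped at complexes I, III and IV. ATP synthase, complex V, lets the protons flow back and makes ATP. Absorptive cells of the colon are known to burn butyrate and other short-chain fatty acids through this chain, and several complex IV subunits exist as a common form and as forms kept to muscle, testis or low oxygen.

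Colorectal tissue of female C57BL/6N mice of 14 weeks was hybridised to 12 single-colour Agilent arrays, 4 in each of 3 groups. Polyps, which the series calls adenomatous, came from Apc+/Δ716 mice, heterozygous for a truncating allele of the tumour suppressor Apc. Normal colorectal tissue came from the same 4 Apc+/Δ716 mice (numbers 103, 106, 107 and 110) and from 4 wild-type mice (102, 104, 105 and 108). The labels name no other allele and no treatment, all mice ate the same chow, and whether a polyp sample pooled several polyps is not stated in the labels. Each level below is the log2 processed signal of a probe minus the 75th percentile of its array, and each difference is a log2 difference between 4 and 4 arrays from limma. A gene was called where the Benjamini-Hochberg adjusted p, over 20082 tested genes, was under 0.05. Values of polyps and Apc normal tissue are in the order of mice 103, 106, 107 and 110, and those of wild-type tissue in the order of 102, 104, 105 and 108.

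The share of spots well above background was 64.6% to 73.8% per array and 0 were saturated. The number of arrays limits the precision, and p-values measure the spread between arrays of these mice. The fit of polyps against Apc normal tissue had no term for the mouse. It thus treated the polyp and normal arrays of the same mouse as independent. Calls with the mouse as a block are given further below. The colon epithelium markers Vil1, Krt8, Krt19 and Cdx1 were well above background on all 12 arrays. Slide 1 held all wild-type arrays, slide 2 the arrays of mice 103 and 106, and slide 3 those of mice 107 and 110, so slide and genotype cannot be told apart. Of the 86 genes, 84 were tested. Cox7b2 and Cox8c were not well above background on any of the 12 arrays and got no test.

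Nearly the whole set had less signal in polyps than in Apc normal tissue. Of the 84 tested genes, 77 fell and 1, Ndufa4, rose, against 24.9% of all tested genes that were lower and 20.5% that were higher. The median difference of the 84 was −0.75, a 1.68-fold lower signal, where the median over all tested genes was −0.06. The middle of the set was narrow: 25% of the differences were below −0.95 and 25% above −0.63. In 77 genes all 4 polyps were below all 4 Apc normal samples, a separation in this direction that 24.7% of all tested genes showed.

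On single arrays, the median level of the 84 genes was 4.55, 4.49, 4.52 and 4.57 in polyps. It was 5.47, 5.34, 5.54 and 5.19 in Apc normal tissue and 5.38, 5.36, 5.25 and 5.40 in wild-type tissue. The 4 polyps lay within 0.08 of each other and below every normal sample, whereas Apc normal tissue of mice 106 and 110 was lower than that of mice 103 and 107. Within mice, the median of the differences was −0.88, −0.78, −0.91 and −0.52. Mouse 110 had the smallest median difference overall and in each of the 5 complexes.

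**Figure D1:**
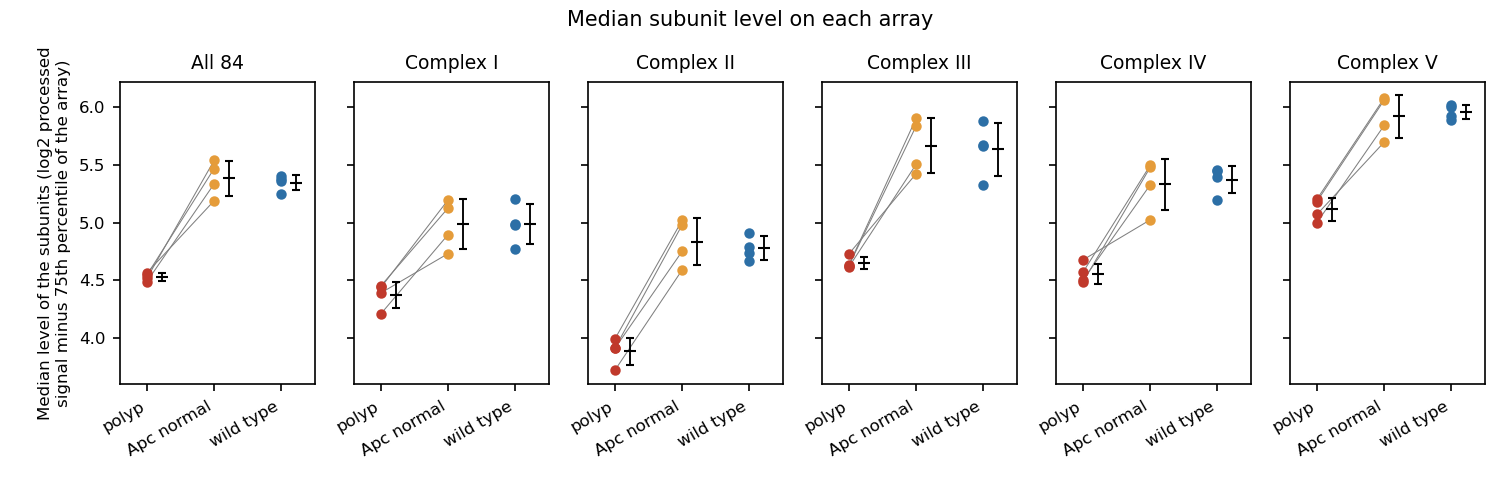
Median level of the tested subunit genes on each array (log2 processed signal minus the 75th percentile of the array), over all 84 genes and by complex, for polyps, Apc normal and wild-type tissue. Points are arrays, bars are mean ± SD (n = 4), and lines join the 2 arrays of a mouse. Polyps lie at 4.49 to 4.57 over all 84 genes and below all normal samples, and Apc normal tissue overlaps wild-type tissue.

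The size of this fall depended on the scaling between arrays. After quantile normalization the median difference was −0.42, with 62 genes lower and 1 higher, and 0 of the genes called before changed sign. Genes at the same signal level moved too: for 960 other genes between the levels 3.97 and 5.67, which hold the middle of the set, the median difference was −0.31, and 43.5% were lower and 9.58% higher. After quantile normalization that median was 0.04 and the shares were 24.9% lower and 24.7% higher. Within slide 2 the median difference of the 84 was −0.81 and within slide 3 it was −0.68.

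Markers of other cell types differed between the same samples. Of 10 markers of absorptive colonocytes 8 fell, and their summed signal was 78.9 to 158 in polyps and 569 to 1134 in Apc normal tissue. All 10 smooth muscle markers fell, with sums of 37.3 to 73.6 in polyps and 382 to 520 in Apc normal tissue. Of 8 colon epithelium markers 5 fell and 0 rose, with sums of 300.2 to 386 in polyps and 552 to 677 in Apc normal tissue. Of 9 leukocyte markers 4 rose and 1 fell, with overlapping sums of 68.8 to 156 in polyps and 76.6 to 105 in Apc normal tissue. All 7 proliferation genes rose, with sums of 27.3 to 31.8 in polyps and 11.5 to 12.7 in Apc normal tissue. In bulk tissue, fewer cells of a type and less RNA per cell cannot be told apart, and the part of these markers in the fall of the subunits was not tested.

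**Figure D2:**
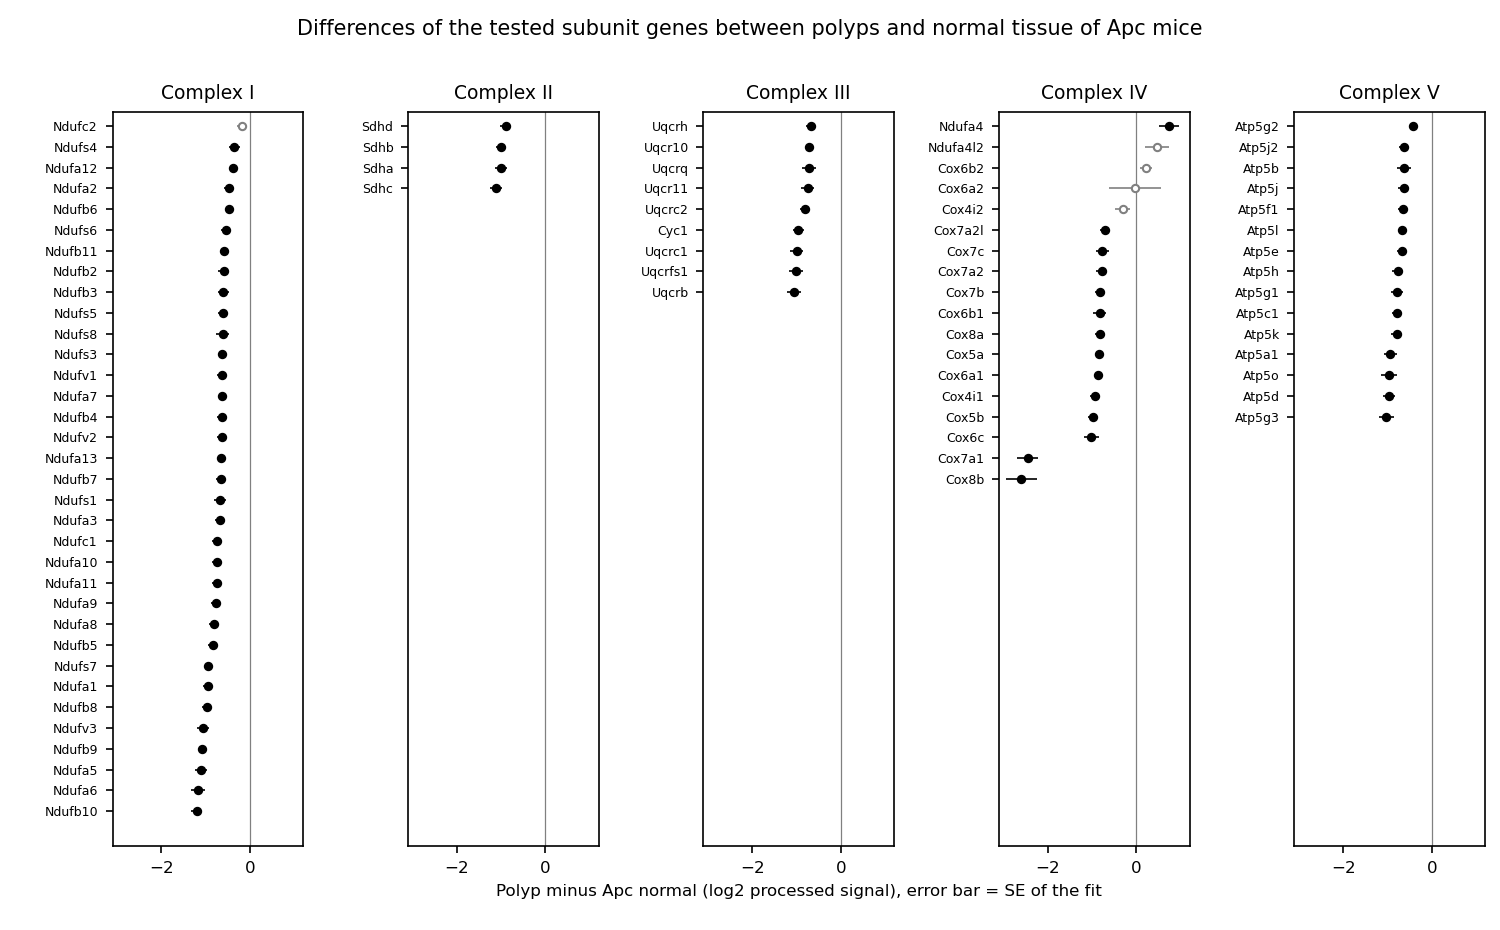
Difference between polyps and Apc normal tissue (log2 processed signal) for 34 tested genes of complex I and the tested genes of complexes II to V, with the SE of the limma fit (4 against 4 arrays). Filled points were called at an adjusted p under 0.05 and open points were not. Most genes lie between −1.20 and −0.35, Cox7a1 and Cox8b lie far to the left, and Ndufa4 is the only filled point to the right of 0.

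Nuclear respiratory factor 1 (NRF1) and the ETS factor GABP are known to bind promoters of many respiratory chain genes. Promoter windows of RefSeq, build GRCm38.p6, with 300 bases each (250 before and 50 after the start), were found for 69 of the 86 genes, in 75 windows. The NRF1 core letters GCGCANGCG stood on either strand in 21 of the 75 windows (28.0%), against 6.25% of all 32851 windows. The ETS letters CCGGAAG stood in 16 member windows (21.3%, against 8.86% of all windows). AAGATGGC, a YY1 motif, stood in 12 (16.0%, against 2.75%), and TNAAGGTCA, an estrogen-related receptor motif, in 3 (4.0%, against 1.28%). All were searched on both strands. The motifs were settled after counts had been seen, and a match of letters is a description and no measured binding site.

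Sdha, Atp5h and Cox6a1 were chosen as genes that fell and hold such letters, and Cox7a1 and Ndufa4 as the gene with the smallest p among tissue isoforms and the gene that rose. The 250 bases before each start follow, 5′ to 3′ on the gene's strand, with NRF1 and ETS letters in capitals. The places are chr13:74350241-74350490, strand − for Sdha, chr11:115419920-115420169, strand − for Atp5h, chr5:115348959-115349208, strand − for Cox6a1, chr7:30183921-30184170, strand + for Cox7a1 and chr6:11907451-11907700, strand − for Ndufa4.
Sdha: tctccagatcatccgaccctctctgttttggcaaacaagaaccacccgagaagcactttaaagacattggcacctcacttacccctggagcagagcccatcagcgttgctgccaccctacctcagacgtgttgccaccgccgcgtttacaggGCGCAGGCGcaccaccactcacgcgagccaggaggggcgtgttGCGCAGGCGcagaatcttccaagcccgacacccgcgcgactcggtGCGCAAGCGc
Atp5h: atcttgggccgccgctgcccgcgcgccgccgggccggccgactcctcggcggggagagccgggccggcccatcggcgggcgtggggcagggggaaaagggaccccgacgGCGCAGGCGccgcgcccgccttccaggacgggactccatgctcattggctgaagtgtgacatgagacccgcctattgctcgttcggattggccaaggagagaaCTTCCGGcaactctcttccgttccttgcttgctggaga
Cox6a1: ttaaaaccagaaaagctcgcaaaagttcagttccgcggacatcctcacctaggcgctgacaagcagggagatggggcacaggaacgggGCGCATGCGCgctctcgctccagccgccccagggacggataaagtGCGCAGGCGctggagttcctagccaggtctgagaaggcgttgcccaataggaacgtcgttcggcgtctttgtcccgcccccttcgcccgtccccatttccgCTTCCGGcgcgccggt
Cox7a1: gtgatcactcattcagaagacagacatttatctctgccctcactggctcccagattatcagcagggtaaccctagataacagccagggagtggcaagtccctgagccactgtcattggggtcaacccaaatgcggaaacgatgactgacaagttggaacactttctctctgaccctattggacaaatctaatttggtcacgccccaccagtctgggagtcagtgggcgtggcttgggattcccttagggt
Ndufa4: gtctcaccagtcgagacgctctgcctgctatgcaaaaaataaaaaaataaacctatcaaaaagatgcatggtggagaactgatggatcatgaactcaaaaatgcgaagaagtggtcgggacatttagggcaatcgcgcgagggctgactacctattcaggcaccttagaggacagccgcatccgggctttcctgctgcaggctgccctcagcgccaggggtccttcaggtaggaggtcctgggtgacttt
Sdha shows 3 NRF1 matches, Atp5h shows 1 NRF1 and 1 ETS match, and Cox6a1 shows 2 NRF1 places, 1 of them matching on both strands, and 1 ETS match. NRF1 and ETS letters do not overlap in these stretches. Those of Cox7a1 and Ndufa4 hold none of the 4 motifs in these letters. The windows of some common subunits that fell, such as Cox5a, Cox5b and Cox7b, also hold none of the 4. Atp5g2, whose fall was the smallest in complex V, has 2 NRF1 matches. Whether the motifs go with the fall was not tested.

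Complex I, the NADH dehydrogenase, fell in 34 of its 35 tested genes, with a median difference of −0.64. All 7 core subunits, which carry the redox centres, fell, with a median of −0.63, and 27 of the 28 accessory subunits fell, with a median of −0.67. The levels of Ndufb10, an accessory subunit of the membrane arm, were 4.46, 4.26, 4.49 and 4.49 in polyps, 5.71, 5.57, 5.79 and 5.45 in Apc normal tissue and 5.62, 5.51, 5.45 and 5.67 in wild-type tissue. Every polyp was lower than every normal sample, and the difference between polyps and Apc normal tissue was −1.20 ± 0.11 (SE, limma, adjusted p = 0.000173). Ndufb9, another accessory subunit of that arm, differed by −1.07 ± 0.10 and Ndufb8 by −0.98 ± 0.10 (adjusted p = 0.000169 and 0.000241, limma).

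Ndufs7, a core subunit holding an iron-sulfur cluster next to the ubiquinone site, had levels of 4.49, 4.47, 4.48 and 4.52 in polyps, 5.54, 5.33, 5.52 and 5.35 in Apc normal tissue and 5.31, 5.35, 5.34 and 5.45 in wild-type tissue. Its polyp values spanned less than 0.1 and lay apart from both kinds of normal tissue, with a difference of −0.95 ± 0.09 (SE, limma, adjusted p = 0.000211) from Apc normal tissue. Ndufa1, a small X-linked accessory subunit, differed by −0.95 ± 0.10 (SE, limma, adjusted p = 0.000277). The gene that was not called was Ndufc2, an accessory subunit, chosen for mention after its values were seen: 4.72, 4.83, 4.58 and 4.79 in polyps, 4.89, 4.89, 5.11 and 4.73 in Apc normal tissue and 4.82, 4.81, 4.70 and 4.94 in wild-type tissue. Polyps and Apc normal tissue overlapped for Ndufc2, and the difference was −0.18 ± 0.12 (SE, limma, adjusted p = 0.251). The smallest called difference in complex I was that of Ndufs4, −0.35 ± 0.12 (SE, limma, adjusted p = 0.0419), a subunit needed for the stability of the NADH-binding arm and named after its values were seen. With the mouse number as a replicate block its adjusted p was 0.0802, and it was above 0.05 in 7 of the 8 fits that left out 1 array, the exception being that without the Apc normal array of mouse 110 (0.0188). Among the core subunits, Ndufs1 (−0.68), Ndufs3 (−0.63) and Ndufv2 (−0.64) lay close together. Among accessory subunits the differences of Ndufa6 (−1.18) and Ndufa5 (−1.10) came next to that of Ndufb10 in size. Ndufs4 was among the 10 complex I calls that quantile normalization removed, leaving 24 of 35 with a median of −0.34.

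Complex II, succinate dehydrogenase, fell in all 4 subunits, with the lowest median of the 5 complexes, −1.01. The levels of Sdhc, a membrane anchor, were 2.87, 2.5, 2.58 and 2.62 in polyps, 3.93, 3.62, 3.85 and 3.62 in Apc normal tissue and 3.79, 3.84, 3.63 and 3.72 in wild-type tissue. Sdhb, the iron-sulfur subunit, had 4.78, 4.66, 4.73 and 4.81 in polyps, 5.81, 5.70, 5.95 and 5.54 in Apc normal tissue and 5.77, 5.73, 5.71 and 5.87 in wild-type tissue. All polyp values of both genes lay below all normal values, and the differences from Apc normal tissue were −1.11 ± 0.13 (SE, limma, adjusted p = 0.000334) for Sdhc and −1.0 ± 0.11 (SE, limma, adjusted p = 0.000339) for Sdhb. Sdha, the flavoprotein that oxidises succinate and whose promoter is printed above, differed by −1.01 ± 0.14 (SE, limma, adjusted p = 0.000823), and Sdhd, the other anchor, by −0.89 ± 0.13. All 4 calls were also made after quantile normalization, with a median of −0.70. No test was made of whether complex II fell more than the others.

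Complex III, the cytochrome bc1 complex, fell in all 9 genes with a median difference of −0.82. Uqcrc2, a core protein of the matrix side, had levels of 4.58, 4.62, 4.63 and 4.73 in polyps, 5.49, 5.48, 5.55 and 5.29 in Apc normal tissue and 5.39, 5.44, 5.33 and 5.64 in wild-type tissue. All polyps lay below all normal samples, and the difference from Apc normal tissue was −0.82 ± 0.10 (SE, limma, adjusted p = 0.000432). Cyc1, which encodes cytochrome c1 and gives electrons to cytochrome c, had levels of 4.63, 4.51, 4.52 and 4.57 in polyps, 5.75, 5.31, 5.60 and 5.42 in Apc normal tissue and 5.51, 5.54, 5.23 and 5.38 in wild-type tissue. It fell in the polyp of every mouse, by −0.96 ± 0.12 (SE, limma, adjusted p = 0.000491). Uqcr10, a small subunit, differed by −0.72 ± 0.09 (SE, limma, adjusted p = 0.000554). Differences of the remaining 6 ran over Uqcrb (−1.06), Uqcrfs1 (−1.01), which is the Rieske iron-sulfur protein, Uqcrc1 (−1.0), Uqcr11 (−0.75), Uqcrq (−0.72) and Uqcrh (−0.68). After quantile normalization 7 of the 9 genes were called lower, with Uqcr11 and Uqcrq no longer called, and the median was −0.45.

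Complex IV, cytochrome c oxidase, was the most divided. Of its 18 tested genes 13 fell, 1 rose and 4 were not called. The 10 common subunits formed a narrow group: all 10 fell, by −1.01 to −0.76. Cox6a1, the common form of subunit 6a, had levels of 6.98, 6.83, 6.98 and 7.08 in polyps, 7.85, 7.81, 7.82 and 7.79 in Apc normal tissue and 7.91, 7.91, 7.89 and 7.98 in wild-type tissue. The values of normal tissue spanned under 0.2 over all 8 arrays, and the polyps lay below them by −0.85 ± 0.09 (SE, limma, adjusted p = 0.000287). Cox5a, which sits on the matrix side, differed by −0.83 ± 0.09 (SE, limma, adjusted p = 0.0003), Cox4i1, the common form of subunit 4, by −0.94 ± 0.11, Cox8a by −0.83 ± 0.10, Cox7b by −0.82 ± 0.11, Cox6b1 by −0.83 ± 0.15 and Cox7a2 by −0.78 ± 0.12. The other 3 common subunits were Cox6c (−1.01), Cox5b (−0.99) and Cox7c (−0.76). The 13 calls of lower signal in complex IV were made after quantile normalization as well, when the median of the 18 genes was −0.44 in place of −0.82.

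Forms of complex IV subunits known from muscle, low oxygen or testis did not move as a block. Cox7a1, the heart and skeletal muscle form of subunit 7a, had levels of 2.62, 1.72, 2.02 and 2.28 in polyps, 5.07, 4.65, 4.30 and 4.41 in Apc normal tissue and 5.27, 5.16, 5.13 and 4.99 in wild-type tissue. Polyps were lower than every normal sample by more than 1.6, and the difference from Apc normal tissue was −2.45 ± 0.23 (SE, limma, adjusted p = 0.000178), a 5.45-fold lower signal. Cox8b, the muscle form of subunit 8, had levels of −4.08, −4.51, −4.21 and −3.95 in polyps, −2.17, −0.94, −2.30 and −0.96 in Apc normal tissue and −1.43, −2.55, −1.21 and −2.06 in wild-type tissue. These are dim but well above background on all 12 arrays, and polyps lay below all normal samples, with a difference of −2.59 ± 0.35 (SE, limma, adjusted p = 0.000688).

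Muscle markers also fell between these samples, where 24.9% of all tested genes were lower. Cox6a2, another muscle form, was not called and is given below. Smtn and Actg2, of smooth muscle, differed by −2.44 ± 0.16 and −3.53 ± 0.27 between polyps and Apc normal tissue (adjusted p = 5.4e-05 and 8.92e-05, limma). Of 7 striated muscle markers 5 were tested and 4 fell, among them Ckm with −3.52 ± 0.39 and Acta1 with −1.99 ± 0.29, and their summed signal was 0.402 to 0.831 in polyps and 1.89 to 3.24 in Apc normal tissue. The striated muscle genes Mb and Myh1 and the brown fat gene Ucp1 were not well above background on any array of any group. Of 6 fat genes, 4 were tested and 1, Fabp4, fell (−1.26 ± 0.33), while Cidec gave −3.16 ± 1.14 (SE, limma, adjusted p = 0.053). The part of muscle tissue in the fall of Cox7a1 and Cox8b was not tested.

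The other tissue forms were not called between polyps and Apc normal tissue. Cox4i2, the low-oxygen form of subunit 4, gave −0.31 ± 0.17 (SE, limma, adjusted p = 0.182), Cox6a2, the muscle form of 6a, −0.03 ± 0.58 (SE, limma, adjusted p = 0.972), and Cox6b2, the testis form of 6b, 0.22 ± 0.14 (SE, limma, adjusted p = 0.256). Cox4i2 was −2.06, −2.21, −2.16 and −2.20 in polyps and −2.16, −1.55, −2.14 and −1.54 in Apc normal tissue, so that Apc normal tissue of mice 106 and 110 was above all polyps and that of mice 103 and 107 among them. Cox6a2 was spread widely, with −4.30, −3.28, −2.63 and −3.46 in polyps and −3.29, −2.66, −5.02 and −2.57 in Apc normal tissue, and the value of mouse 107 in Apc normal tissue was the lowest of all arrays. Cox7a2l, a relative of complex IV subunits, fell with the common subunits, by −0.71 ± 0.10 (SE, limma, adjusted p = 0.000855).

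Ndufa4, first described in complex I and now placed in complex IV, was the only gene of the set that rose. Its levels were 3.88, 4.12, 3.71 and 4.01 in polyps, 3.05, 3.16, 3.81 and 2.78 in Apc normal tissue and 2.88, 3.05, 2.88 and 3.12 in wild-type tissue. In Apc normal tissue mouse 107 stood above the other 3 mice and above its own polyp, so the groups overlapped, and the polyp was higher than Apc normal tissue in 3 of 4 mice. The difference was 0.73 ± 0.22 (SE, limma, adjusted p = 0.0263), a 1.66-fold higher signal. With the mouse number as a replicate block the adjusted p was 0.0581. Leaving out 1 array, either the polyp or the Apc normal one, of mouse 103, 106 or 110 also took it above 0.05 (0.0519 to 0.0731). It was 0.00457 when both arrays of mouse 107 were left out, an alternative chosen after seeing the data, and 0.00254 without the Apc normal array of that mouse alone. Ndufa4l2, its paralogue known as a target of the hypoxia factor HIF-1, had levels of −2.07, −2.03, −2.04 and −2.51 in polyps, −3.01, −2.34, −3.15 and −2.01 in Apc normal tissue and −2.77, −2.94, −2.66 and −3.96 in wild-type tissue. The groups overlapped and the difference from Apc normal tissue was 0.46 ± 0.27 (SE, limma, adjusted p = 0.192).

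**Figure D3:**
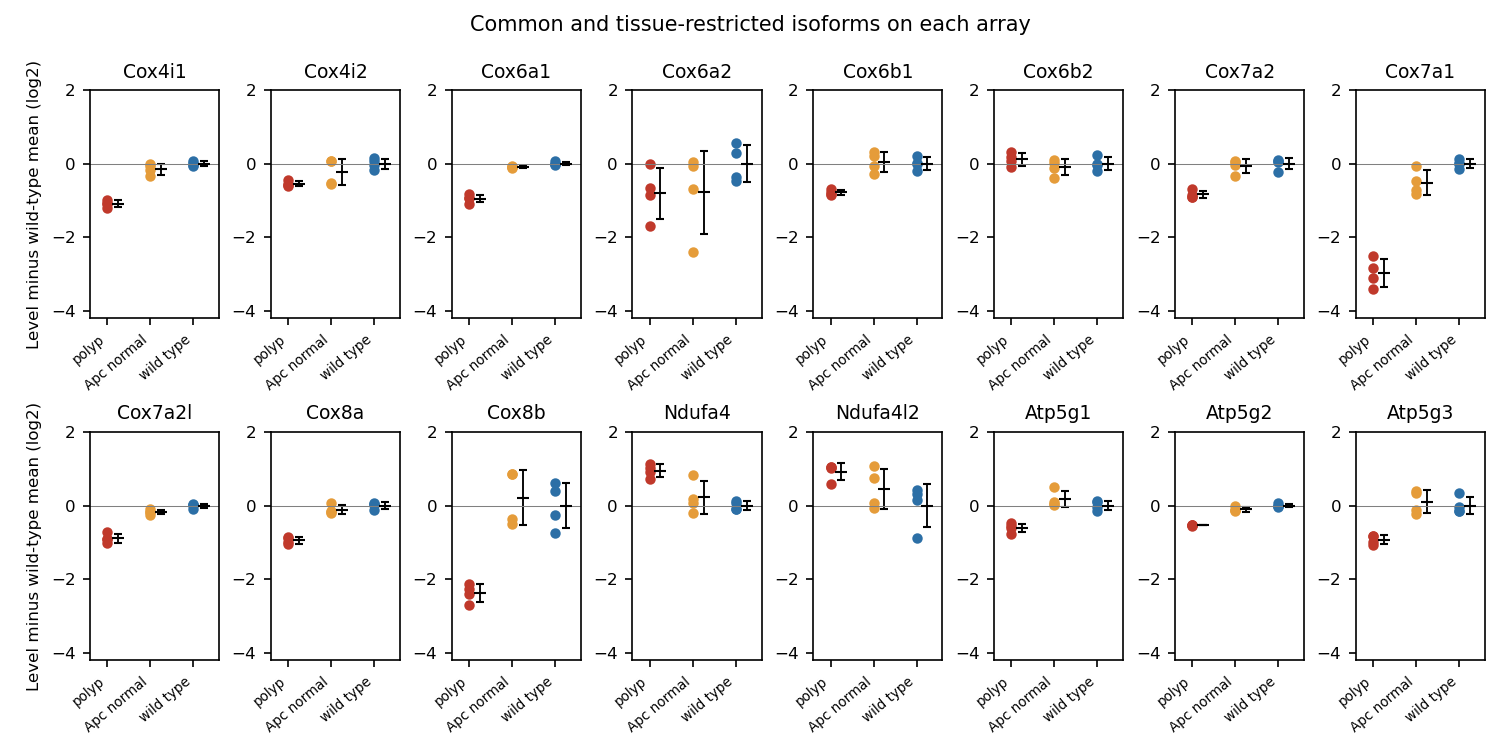
Level of each isoform on each array minus the mean of the 4 wild-type arrays (log2) in polyps, Apc normal and wild-type tissue, with mean ± SD (n = 4). Cox7a1 and Cox8b are more than 2 lower in polyps, the common forms are lower, and Ndufa4 is higher on average. Ndufa4, Ndufa4l2, Cox6a2, Cox6b2 and Cox4i2 overlap between polyps and Apc normal tissue.

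Complex V, ATP synthase, fell in all 15 genes, with a median difference of −0.77. The 5 genes of the catalytic F1 part had a median of −0.79, the 4 of the peripheral stalk −0.71, the 3 of the c ring −0.78 and the remaining 3 of the membrane part −0.66. Atp5c1, which encodes the rotating gamma subunit, had levels of 4.93, 4.86, 4.96 and 5.07 in polyps, 5.84, 5.65, 5.93 and 5.57 in Apc normal tissue and 5.90, 5.71, 5.59 and 5.85 in wild-type tissue. Atp5d, the delta subunit of the same stalk, had 4.29, 4.01, 4.04 and 3.99 in polyps, 5.35, 4.93, 5.10 and 4.85 in Apc normal tissue and 5.14, 5.09, 4.84 and 4.85 in wild-type tissue. Both fell in all 4 mice without overlap, by −0.79 ± 0.11 (SE, limma, adjusted p = 0.000966) and −0.97 ± 0.14 (SE, limma, adjusted p = 0.000917). Atp5h, the stalk subunit d whose promoter is printed above, differed by −0.77 ± 0.12 (SE, limma, adjusted p = 0.00129). In F1, the catalytic beta subunit Atp5b (−0.63) and alpha subunit Atp5a1 (−0.93) and the epsilon subunit Atp5e (−0.68) lay on the same side. So did Atp5o (−0.97), Atp5f1 (−0.65) and Atp5j (−0.63) of the stalk and Atp5k (−0.80), Atp5l (−0.66) and Atp5j2 (−0.62) of the membrane part. After quantile normalization 12 of the 15 were called, and the median was −0.38.

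The c ring is built from 1 mature protein that 3 genes encode with different import sequences. Atp5g1 had levels of 5.27, 5.43, 5.48 and 5.56 in polyps, 6.15, 6.10, 6.54 and 6.07 in Apc normal tissue and 6.00, 6.16, 5.89 and 6.13 in wild-type tissue, and Atp5g3 had 5.23, 5.0, 5.24 and 5.07 in polyps, 6.41, 5.84, 6.45 and 5.94 in Apc normal tissue and 6.39, 6.02, 5.92 and 5.92 in wild-type tissue. Atp5g2 had 6.18, 6.17, 6.2 and 6.18 in polyps, 6.58, 6.59, 6.70 and 6.57 in Apc normal tissue and 6.68, 6.69, 6.70 and 6.79 in wild-type tissue. All 3 fell without overlap between polyps and Apc normal tissue. The differences were −0.78 ± 0.14 for Atp5g1 (adjusted p = 0.00228), −1.02 ± 0.17 for Atp5g3 (0.00167) and −0.42 ± 0.08 for Atp5g2 (0.00449, limma). That of Atp5g2, with polyps within 0.03 of each other, was the smallest in complex V, and after quantile normalization it was −0.12 with an adjusted p of 0.284. Whether the 3 differences differ from each other was not tested.

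Of the 3 genes that share only the name, Atp5sl, an assembly factor of the complex I membrane arm, fell by 0.73 ± 0.14 (SE, limma, adjusted p = 0.00327), and Atp5s gave −0.05 ± 0.10 (SE, limma, adjusted p = 0.697) with overlapping groups. The pseudogene Atp5c1-ps gave −0.88 ± 0.14 (SE, limma, adjusted p = 0.00166), and its probe may also read Atp5c1 transcripts.

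Several probes of a gene gave the same direction in nearly all cases. The array had more than 1 probe for 28 of the genes. Of their 39 other tested probes, 36 were lower in polyps and called. The other probe of Atp5g1, dimmer than the used one, gave −0.17 ± 0.19 (SE, limma, adjusted p = 0.495) and was not called. The used Atp5g1 probe gave −0.78 ± 0.14. For Ndufa3 the used probe gave −0.68 ± 0.10 (SE, limma, adjusted p = 0.00123), and a dimmer probe gave 0.11 ± 0.14 (adjusted p = 0.565). With the mean over probes Ndufa3 was no longer called, at −0.29 with an adjusted p of 0.0552. For Ndufv3 the used probe gave −1.05 ± 0.13 (SE, limma, adjusted p = 0.000537), another −1.16 ± 0.17 (adjusted p = 0.00119) and a dim one 0.28 ± 0.50 (adjusted p = 0.68). All 3 Ndufv3 probes lie on chromosome 17 (mm9), at 31668209 to 31668268, 31665148 to 31665207 and 31663758 to 31663817. In the files 5 probes were placed on another chromosome than their gene, and 1 of them, for Atp5j2, was used here.

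No subunit gene was called between normal tissue of Apc+/Δ716 mice and that of wild-type mice. Limma called 0 of the 84 genes, against 0.0199% of all tested genes that were lower and 0.149% that were higher, and 2 had an unadjusted p under 0.05, against 17.1% of all tested genes. The median difference was 0.03, with −0.02 over all tested genes. Groups did not overlap for 4 genes, 3 lower and 1 higher in Apc normal tissue, against 5.53% and 4.78% of all tested genes. The smallest p values belonged to Cox7a1 with −0.53 ± 0.17, Ndufa1 with −0.24 ± 0.10, Cox7a2l with −0.18 ± 0.09, Atp5s with 0.19 ± 0.09 and Atp5sl with −0.26 ± 0.13. For Cox7a1, Apc normal tissue of mice 106, 107 and 110 lay below all wild-type values and that of mouse 103 among them, and the adjusted p was 0.202. Without the array of mouse 103 it was 0.0466, with a difference of −0.68.

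Polyps against wild-type tissue share the polyp arrays with the comparison above. Of the 84 genes 78 fell and 2 rose, against 32.8% of all tested genes that were lower and 27.4% that were higher, and the median difference was −0.77. After quantile normalization 70 were lower and 2 higher, the median was −0.43, and Ndufa12, called lower before, was at 0.06 without a call. Groups did not overlap for 76 genes on the lower side and 2, Ndufa4 and Ndufa4l2, on the higher side, against 31.3% and 25.3% of all tested genes. Cox7a1 differed by −2.97 ± 0.18 (SE, limma, adjusted p = 9.98e-06) and Ndufa1 by −1.19 ± 0.07 (SE, limma, adjusted p = 1.07e-05). The next smallest p were those of Ndufb9 (−1.12 ± 0.08), Ndufb8 (−0.94 ± 0.07) and Cox4i1 (−1.09 ± 0.08). Cox4i2 was lower here, by −0.55 ± 0.09 (SE, limma, adjusted p = 0.00124). The genes that rose were Ndufa4, by 0.95 ± 0.11 (SE, limma, adjusted p = 0.000179), and Ndufa4l2, by 0.92 ± 0.28 (SE, limma, adjusted p = 0.0222). The call of Ndufa4l2 was lost without the polyp array of mouse 106 or of mouse 107, and Cox6a2 (−0.81 ± 0.38 (SE, limma, adjusted p = 0.0943)) was called only without that of mouse 107 or after normexp with quantile normalization.

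Genes around the chain were set beside it. The 13 subunits encoded by mitochondrial DNA fell in 12 cases with a median difference of −0.62, for example mt-Nd5 of complex I by −0.82 ± 0.09 (SE, limma, adjusted p = 0.000354) and mt-Cytb of complex III by −0.68 ± 0.10 (SE, limma, adjusted p = 0.000865). The gene not called was mt-Nd6, alone in being read from the other strand of mitochondrial DNA, with −0.26 ± 0.12 (SE, limma, adjusted p = 0.11), named after its values were seen. After quantile normalization 4 of the 13 were called lower and the median was −0.27. With that scaling 4369 of all 20082 tested genes were called lower. Of 6 subunits or bound factors outside the name rule 5 fell, among them Ndufab1, an acyl carrier subunit of complex I, by −0.62 ± 0.11 and Higd2a, a complex IV factor, by −0.86 ± 0.14. After quantile normalization 3 of the 6 were called lower, and their median was −0.29 in place of −0.64.

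Of 9 electron carriers and exchangers 8 fell and 1 rose, with a median of −0.87, which quantile normalization changed to −0.57 with 7 lower. Slc25a20, the carnitine carrier, fell by 1.84 ± 0.19 (SE, limma, adjusted p = 0.000241). The adenine nucleotide carrier gene Slc25a5 fell by 0.91 ± 0.10, whereas Slc25a4, the form known from heart and muscle, was the gene that rose, by 0.89 ± 0.18 (SE, limma, adjusted p = 0.00479). Levels of Slc25a4, named after its values were seen, were 4.66, 4.84, 4.35 and 4.56 in polyps, 3.42, 3.74, 4.14 and 3.55 in Apc normal tissue and 3.64, 3.70, 4.01 and 3.71 in wild-type tissue, with all polyps above all normal samples. Ubiquinone synthesis genes fell in 6 of 9 tested cases, Pdss1 by −1.14 ± 0.15 and Coq5 by −0.78 ± 0.11. Their median was −0.78, and after quantile normalization it was −0.79 with 5 lower.

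Of the assembly factors, 16 of 37 tested fell and 2 rose, and after quantile normalization 15 were lower with a median of −0.14, in place of −0.25. Sco1, a copper chaperone of complex IV, fell by 1.27 ± 0.17 (SE, limma, adjusted p = 0.00069) and Cox14, a complex IV assembly factor, by −0.77 ± 0.11. The 2 that rose were Sdhaf1, an assembly factor of complex II, by 0.57 ± 0.09 (SE, limma, adjusted p = 0.00177) and Cox18, which inserts a complex IV subunit, by 0.37 ± 0.11 (SE, limma, adjusted p = 0.0259). Of 15 regulators and enzymes of mitochondrial biogenesis 3 fell and 2 rose, with a median of −0.01, shares no higher than the 24.9% lower and 20.5% higher of all tested genes. Esrra, an orphan nuclear receptor that drives respiratory genes, fell by 1.30 ± 0.14 (SE, limma, adjusted p = 0.000277) and Polg2, a subunit of the mitochondrial DNA polymerase, by −1.40 ± 0.15 (SE, limma, adjusted p = 0.000274). Nrf1 gave 0.21 ± 0.11 (SE, limma, adjusted p = 0.154) and Ppargc1a, the coactivator PGC-1alpha, −0.97 ± 0.43 (SE, limma, adjusted p = 0.0967), both named after their values were seen.

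Of 13 genes of the outer membrane and of protein import, 3 fell and 2 rose, no larger shares than the 24.9% and 20.5% of all tested genes. The median was 0.03, and after quantile normalization 1 fell and 4 rose. The 3 that fell were the channel genes Vdac1 (−0.59 ± 0.09), Vdac2 (−0.65 ± 0.10) and Vdac3 (−0.80 ± 0.17), and the 2 that rose were the import genes Tomm20 (0.50 ± 0.09) and Timm50 (0.30 ± 0.09). These 5, like the 2 assembly factors that rose, were named after their values were seen. Against wild-type tissue 7 of the 13 were higher in polyps and 3 lower, with a median of 0.30. In that comparison 27.4% of all tested genes were higher and 32.8% lower. Differences between the lists were not tested.

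**Figure D4:**
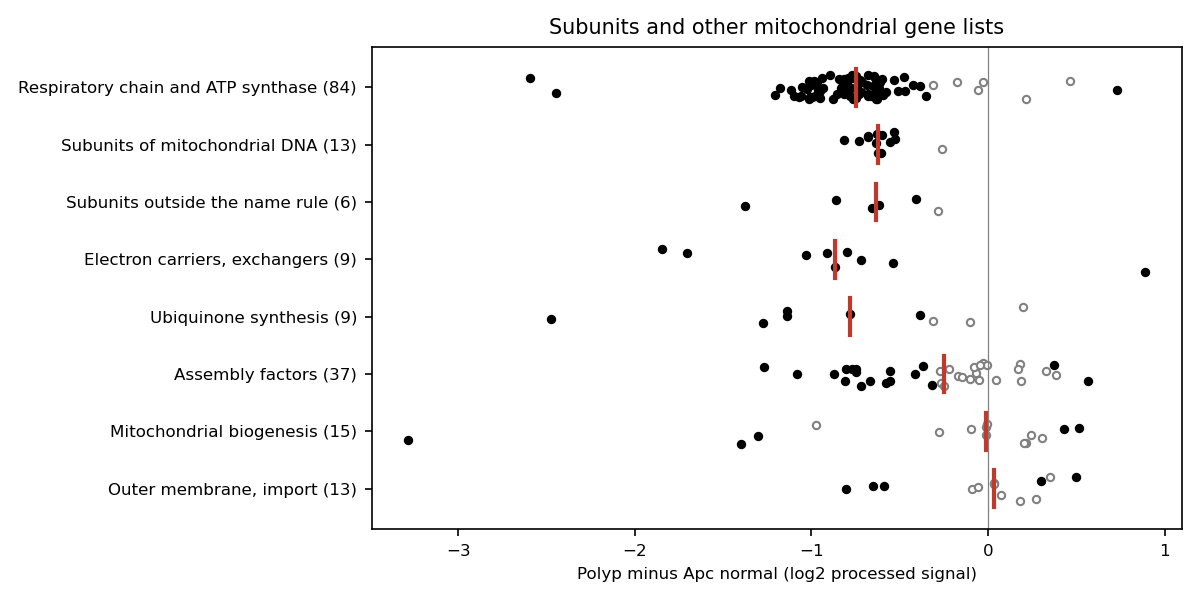
Difference between polyps and Apc normal tissue (log2 processed signal) for the 84 tested subunit genes and the genes of 7 other mitochondrial lists, with the number tested in brackets. Filled points were called at an adjusted p under 0.05, open points were not, and red bars are medians. The bars lie at −0.75 for the subunits, −0.62 for those of mitochondrial DNA, −0.25 for assembly factors and 0.03 for outer membrane and import genes.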

How the data were processed

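Cy3-labelled RNA of each sample was hybridised to an Agilent 4x44K mouse array, and titles gave genotype, tissue and mouse number. Deposited scanner files hold intensity: per the file headers, version 10.7.3.1 of Agilent Feature Extraction subtracted background and wrote a linear processed signal. The deposited value table holds a linear ratio, and no source used here says how the authors made it. Per array 99.8% to 99.9% of its entries were within 1% of processed signal over a constant, and column medians were 1.00.

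Control spots were dropped, as were 1403 spots marked as outliers. Log2 signals were averaged per probe and set against the 75th percentile of the array. RefSeq tables of GRCm38.p6 gave current names (27508 by accession, 3544 by symbol, 404 by synonym, 7973 kept the file's name), while probe places are in mm9. The brightest probe stood for a gene, which was tested if well above background on all 4 arrays of any group. Each comparison fitted its 8 arrays (limma 3.58.1 with R 4.3.3, lmFit and eBayes, two-sided, Benjamini-Hochberg adjustment), a procedure also tried on simulated arrays. There the arrays were drawn independently, and 100 genes were given a change of 0.5 and 100 a change of 1. The fit of Apc normal with wild-type arrays recovered 1 and 23 of these, with 0 false calls. That of polyp with Apc normal arrays recovered 4 and 39, with 5 false calls. The fit of polyp with wild-type arrays recovered 16 and 50, with 7 false calls. Summed marker signals add the scaled linear signals.

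The members and lists were chosen with earlier results of these data known. Genes named were the 3 of smallest p per complex, those called against the majority, the 5 of smallest p in the other comparisons, isoform sets, members with discordant probes, and 2 per list. Polyp and normal tissue of an Apc mouse share their number in the titles and deviated together (r = 0.456, 0.170, 0.143 and 0.283 across genes for mice 103, 106, 107 and 110). Arrays of different mice gave −0.329 to 0.193, so for mice 106 and 107 1 such value was higher. The pairing rests on the shared animal in the titles. Alternatives were other scalings, background correction, filters, probe rules, fits, slide or mouse as a block, and leaving out arrays. The values of 1 member are not reported here by name.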

Additional observations from a re-analysis of the deposited data

Results flagged for a closer look

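Within 108 groups of 4 arrays over the named genes, 6 held 1 array far from the other 3 by Dixon's criterion, and chance alone flags about 1 group in 20. In polyps, Ndufb10 was 4.26 in mouse 106, below the other polyps, and Ndufa4l2 was −2.51 in mouse 110, below the other polyps. In Apc normal tissue, Atp5g2 was 6.70 in mouse 107, above the others. In wild-type tissue, Ndufa1 was 6.28 in mouse 108, above the others, while Cox7a2 was 5.27 in mouse 105 and Cox7a2l 5.75 in mouse 104, both below the others.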

How the results depend on the processing

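In polyps against Apc normal tissue the members' median difference was −0.42 after quantile normalization and −0.41 after normexp correction with quantile normalization, and in polyps against wild-type tissue −0.43 and −0.44, and the cause was not tested. With a replicate block for the mouse number, 0 members were called higher and 76 lower, since Ndufa4 and Ndufs4 were no longer called, and it changed no other call of a member. With slide as a fixed block 1 was called higher and 76 lower, again without Ndufs4. Within slide 2 alone, with 4 arrays, 0 members were higher and 24 lower (all genes 1472 and 1994), and within slide 3 alone 0 and 5 (all genes 920 and 982). Leaving out 1 array left 75 to 77 members lower and 0 to 1 higher against Apc normal tissue, and 76 to 78 lower and 1 to 2 higher against wild-type tissue. It moved the calls of all genes in Apc normal against wild-type tissue to 2 to 330 higher and 0 to 200 lower, with 0 to 1 members lower, and the 330 and 200 are without the Apc normal array of mouse 103. Without that of mouse 106 or 110, or the wild-type array of mouse 104 or 105, 2 and 0 were called, without that of mouse 102 9 and 0, without that of mouse 108 10 and 1, and without Apc normal of mouse 107 29 and 2. Those all-gene calls, 30 higher and 4 lower, also moved to 3 higher and 0 lower with normexp, 2 and 0 with no filter, 12 and 2 with trend and robust eBayes, 159 and 67 with all 12 arrays in 1 fit and 467 and 347 with slide as a random block. The calls of lower signal became 2 with the median of each array or the value table, 9 with quantile normalization and 0 with the mean over probes. In the fit with slide as a random block, the slide correlation was estimated as negative, at −0.082. As slide 1 held all wild-type arrays, that fit cannot separate slide from genotype. Called members turned direction, without a call, only against wild-type tissue: Ndufa12 gave 0.06 with quantile normalization and 0.11 with normexp and quantile, and Ndufa2 0.05 with normexp and quantile. An uncalled gene is not shown to be equal between groups.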

Other observations

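The array also carries AA467197, which the RefSeq table lists with the synonym Nmes1 and which is known as a relative of Ndufa4. It was looked at after the values of Ndufa4 had been seen. Its levels were 4.45, 4.13, 4.62 and 5.13 in polyps, 6.29, 6.26, 5.98 and 6.17 in Apc normal tissue and 6.19, 5.61, 5.79 and 6.08 in wild-type tissue. All polyps lay below all normal samples, and the difference between polyps and Apc normal tissue was −1.59 ± 0.21 (SE, limma, adjusted p = 0.000602), the opposite direction to that of Ndufa4. Between Apc normal and wild-type tissue it was 0.26 ± 0.15 (SE, limma, adjusted p = 0.422).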
